A study of Mus musculus with 7 samples.

Results

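The genes of the translation initiation and elongation factors were followed in mouse hematopoietic stem cells (HSCs) taken from bone marrow. A gene was taken as a member where a probe set annotated to it alone carried a symbol starting Eif1 to Eif6, Eef1 or Eef2. The Eif4ebp and Eif2ak genes, which encode regulators, were left out, as was Eif2s3y. The rule found 62 probe sets for 57 of the 22180 genes on the arrays, and for each gene the probe set of highest mean log2 value over all arrays was used, without regard to genotype. No measured difference entered that choice of probe set, but the family itself was chosen with earlier results of these data known. Of the 57 genes, 53 fell into 8 groups by role. They encode factors, their modifying enzymes or other proteins that carry a factor's name, such as those of Eef1e1 and Eif4enif1. The other 4 were described apart: the pseudogene Eif1-ps3, the Eif4a3-like gene Eif4a3l1, Eif1ad, and Eif2c5, a noncoding RNA gene in the RefSeq table. Some factors had no probe set annotated to them alone and were not analysed here, among them Eif1, Eif2s1, Eif2s3x, Eif3g and Eif4g1.

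Expression was compared between 3 arrays of Ahr knockout mice (Ahr-KO) and 4 of wild-type mice (WT). Animals of both groups had a C57BL/6J background and were killed at 8 weeks of age, and the HSCs were sorted by SLAM family markers from lineage-depleted marrow. The deleted part of Ahr, the animals behind each array and any pooling are not given in the labels, so p-values cover only the array-to-array spread, part or all of which may be technical. Ahr encodes the aryl hydrocarbon receptor, a ligand-activated transcription factor, and the comparison asks how its loss bears on HSC transcripts.

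As background, initiation factors bring the initiator tRNA, the small ribosomal subunit and the capped mRNA together and find the start codon. Elongation factors then deliver aminoacyl-tRNAs and move the ribosome along. HSCs are known for a low rate of protein synthesis compared with the progenitors they give rise to, and for sensitivity to changes in that rate.

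Values are the deposited probe set intensities, which have no unit, and differences are Ahr-KO minus WT of log2(intensity + 1). On this scale the difference of a dim gene depends on the constant added to its intensity. Such a difference sets neither a lower nor an upper bound on the change in mRNA. A background mark was set on each array at the 95th percentile of the intensities of 1108 olfactory receptor genes' probe sets, none thought to be active in HSCs, and it lay between 33.8 and 42.8. Brightness differs between probe sets for reasons other than mRNA amount. It was used to choose genes to print and to place them against the mark, and does not rank genes by mRNA amount. Median intensity ran from 16.9 to 22.1 over the arrays. The probe set of Ahr stood at 34.1, 137 and 26.4 on the Ahr-KO arrays against 31.3, 57.9, 14.9 and 20.5 on the WT arrays, which does not check the genotype labels, since the part of the gene it covers is not known here. Of 6 HSC markers measured, Kit, Hlf and Gata2 exceeded the background mark on all 7 arrays. Slamf1, the gene of the SLAM marker CD150, exceeded it on 3 of 3 Ahr-KO arrays and 1 of 4 WT arrays, with a difference of 2.58 (unadjusted p = 0.0288, limma adjusted p = 0.963). Differences of the 6 HSC markers were above 0 for 2, Slamf1 and Mecom, and below 0 for 4, with a median of -0.53. Mean log2 values of 11 granulocyte markers ran from 7.82 to 9.41 in Ahr-KO and from 4.72 to 9.92 in WT, and all 11 had higher mean log2 values in Ahr-KO, although the mean intensities of Camp, Ngp and S100a9 were lower there. Of 6 B lymphoid markers 6 had lower mean log2 values in Ahr-KO, although 3 exceeded background on no array. Lower too were 5 of 6 macrophage and dendritic markers, 2 of them above background on no array. Higher were 2 of 3 erythroid markers and 4 of 5 T and NK cell markers, 1 of these 5 above background on no array. Of all probe sets, 48.3% had higher mean log2 values in Ahr-KO. The part of these cell types in the results was not tested. In bulk RNA, more cells of a type and more RNA per cell cannot be told apart.

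The 250 bases upstream of the annotated start are shown for the genes that stood out by order or unadjusted p below, because AhR with its partner Arnt binds a core of GCGTG. The sequences are those of RefSeq (GRCm38.p6), each from the most upstream annotated start of its gene, read 5′ to 3′ on the gene's strand. Capitals mark the core in either orientation, GCGTG or CACGC. Eif4e2 lies on the plus strand at chr1:87213661-87213910, Eif4enif1 on the plus strand at chr11:3202103-3202352, Eif3a on the minus strand at chr19:60790694-60790943 and Eif3j1 on the plus strand at chr2:122028330-122028579.
Eif4e2: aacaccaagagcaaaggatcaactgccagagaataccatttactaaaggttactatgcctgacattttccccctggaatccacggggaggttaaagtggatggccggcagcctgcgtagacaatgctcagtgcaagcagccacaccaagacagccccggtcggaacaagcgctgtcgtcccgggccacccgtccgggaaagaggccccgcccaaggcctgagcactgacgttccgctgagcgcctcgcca
Eif4enif1: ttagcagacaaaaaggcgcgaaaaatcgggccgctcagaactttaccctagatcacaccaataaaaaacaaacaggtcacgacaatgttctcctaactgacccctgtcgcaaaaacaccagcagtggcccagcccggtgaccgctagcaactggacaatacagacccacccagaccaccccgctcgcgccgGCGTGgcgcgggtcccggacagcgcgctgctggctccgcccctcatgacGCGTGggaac
Eif3a: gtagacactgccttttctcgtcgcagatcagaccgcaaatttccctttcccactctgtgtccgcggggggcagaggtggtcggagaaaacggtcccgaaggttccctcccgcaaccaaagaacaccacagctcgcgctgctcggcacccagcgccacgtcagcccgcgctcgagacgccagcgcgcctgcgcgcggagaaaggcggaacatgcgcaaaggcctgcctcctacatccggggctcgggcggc
Eif3j1: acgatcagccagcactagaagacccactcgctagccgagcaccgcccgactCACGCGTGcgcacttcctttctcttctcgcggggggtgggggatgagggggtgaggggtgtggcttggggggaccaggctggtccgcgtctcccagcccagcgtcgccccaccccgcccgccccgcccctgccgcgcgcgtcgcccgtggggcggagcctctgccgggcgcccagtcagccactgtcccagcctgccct
The Eif4enif1 window held 2 cores on the gene's strand, beginning 59 and 10 bases before the start. The Eif3j1 window held 2 that overlap on opposite strands, and the windows of Eif4e2 and Eif3a held 0. Only the most upstream start of a gene was searched, and Eif4e2 has 3 annotated starts and Eif4enif1 has 4. Of 43 translation factor genes matched to a promoter sequence, 21 (48.8%) held at least 1 core, against 34.3% of 16918 genes on the array and 28.3% of all 27025 genes with a sequence. The windows also differed in base composition, with a median GC content of 61.2% in the 43 genes and 55.6% in the genes on the array, and its part in that share was not tested. Median differences were -0.18 in the 21 genes with a core and -0.21 in the 22 without. A match to these letters is a description and not a bound site.

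No translation factor gene passed an adjusted p of 0.05 in the comparison of Ahr-KO with WT (limma, Benjamini-Hochberg over 25335 probe sets). Of all probe sets tested, 0% were called. The lowest adjusted p among the 57 genes was 0.963. An unadjusted p under 0.05 was found for 3 genes, or 5.26%, against 4.21% of all probe sets. Higher in Ahr-KO were 2 of them, Eif4e2 and Eif2b3, with 1.99% of all probe sets, and lower was 1, Eif4enif1, with 2.22%. The genotypes did not overlap for 4 genes, or 7.02%, against 5.74% of all probe sets. These were Eif4e2, Eif2b3 and Eif3a with higher values in Ahr-KO (2.61% of all probe sets) and Eif3j1 with lower values (3.13%). The shares are close to those of all probe sets, so the counts are no result about translation factors as a group. Differences were above 0 for 26 genes and below 0 for 31. The median was -0.11 over the 57 genes (0.11 without WT replicate 4), -0.03 over the 53 in role groups and -0.03 over all probe sets. The count at an unadjusted p under 0.05 was 5 without Ahr-KO replicate 2 and 1 without Ahr-KO replicate 3, and 2 without Ahr-KO replicate 1 and without each of WT replicates 1, 3 and 4. It was 4 without WT replicate 2. Under these settings 3.77 to 5.29% of all probe sets had an unadjusted p under 0.05, 5.29% of them without Ahr-KO replicate 2. The count without overlap was 10 without Ahr-KO replicate 2 and 8 without Ahr-KO replicate 3. It was 7, 8 and 9 without WT replicates 1, 2 and 3. With 1 array fewer, 9.27 to 14.5% of all probe sets did not overlap.

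**Figure D1:**
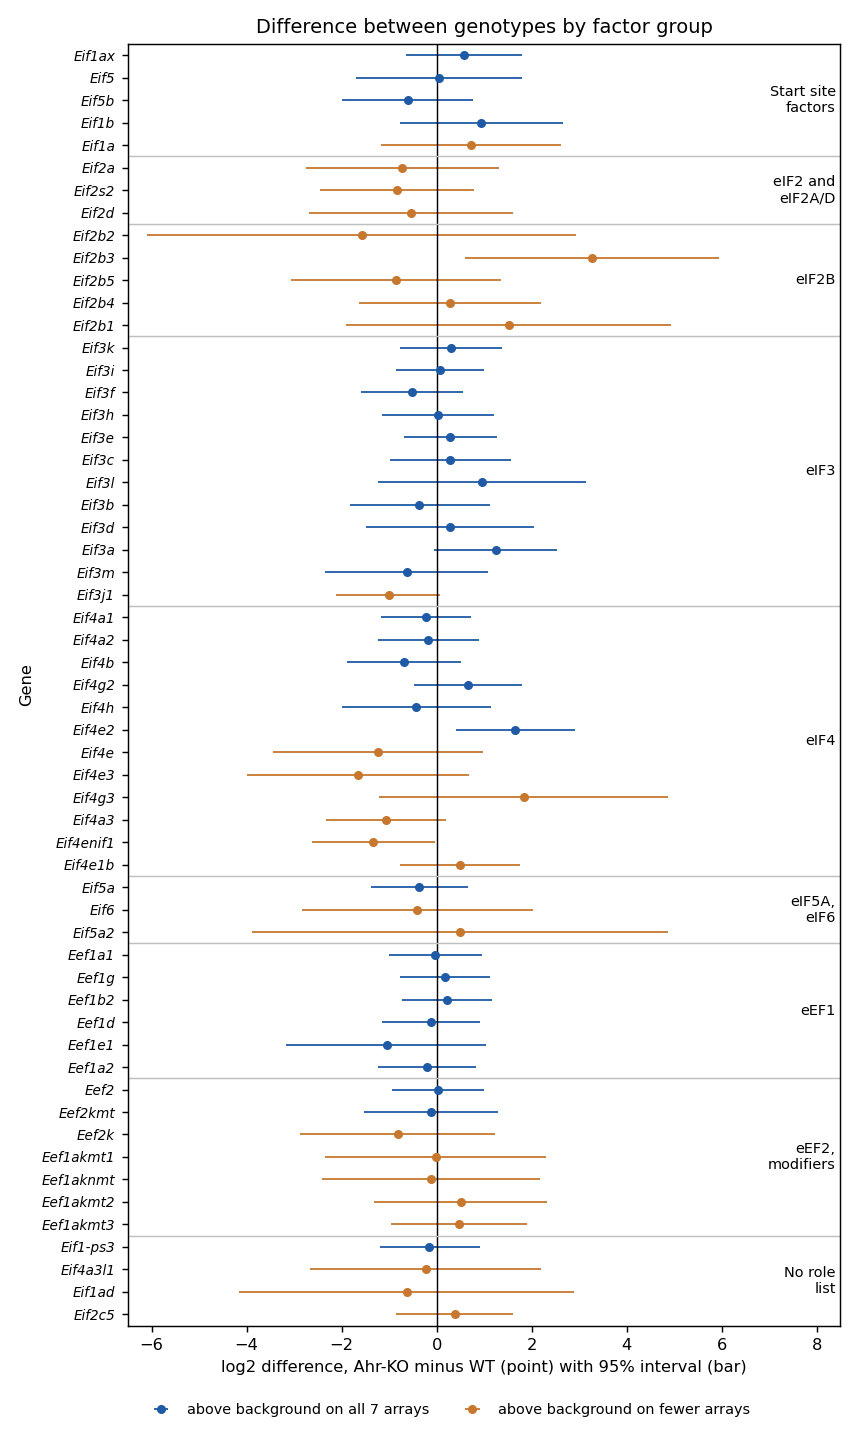
Log2 difference between Ahr-KO and WT for the 57 translation factor genes, grouped by role. Points are differences and bars 95% intervals from the limma fit, blue for the 31 genes above background on all 7 arrays and orange for the other 26. The intervals of Eif2b3, Eif4e2 and Eif4enif1 lie off 0 before adjustment. The blue bars are shorter in the median (SE 0.511 against 0.942 for orange), but not for every gene.

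Expression above background was common in this family. On all 7 arrays 31 of the 57 genes (54.4%) exceeded the mark, against 14.4% of all probe sets, and 3 genes exceeded it on no array (Eif4e1b, Eef1akmt3 and Eif2c5). By role it was all 6 eEF1 genes, 11 of 12 eIF3 genes, 4 of 5 start site genes and 6 of 12 eIF4 genes, but 0 of 5 eIF2B genes. The number above background per array was 38, 49 and 41 on the Ahr-KO arrays against 45, 40, 45 and 51 on the WT arrays. The share of all probe sets above background was highest on WT replicate 4 (44.9%) and Ahr-KO replicate 2 (41.9%). On these arrays the most translation factor genes exceeded the mark. Both also had the lowest background marks (33.9 and 33.8) and the highest median intensities (22.1 and 20.3). The part of these in the counts was not tested.

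**Figure D2:**
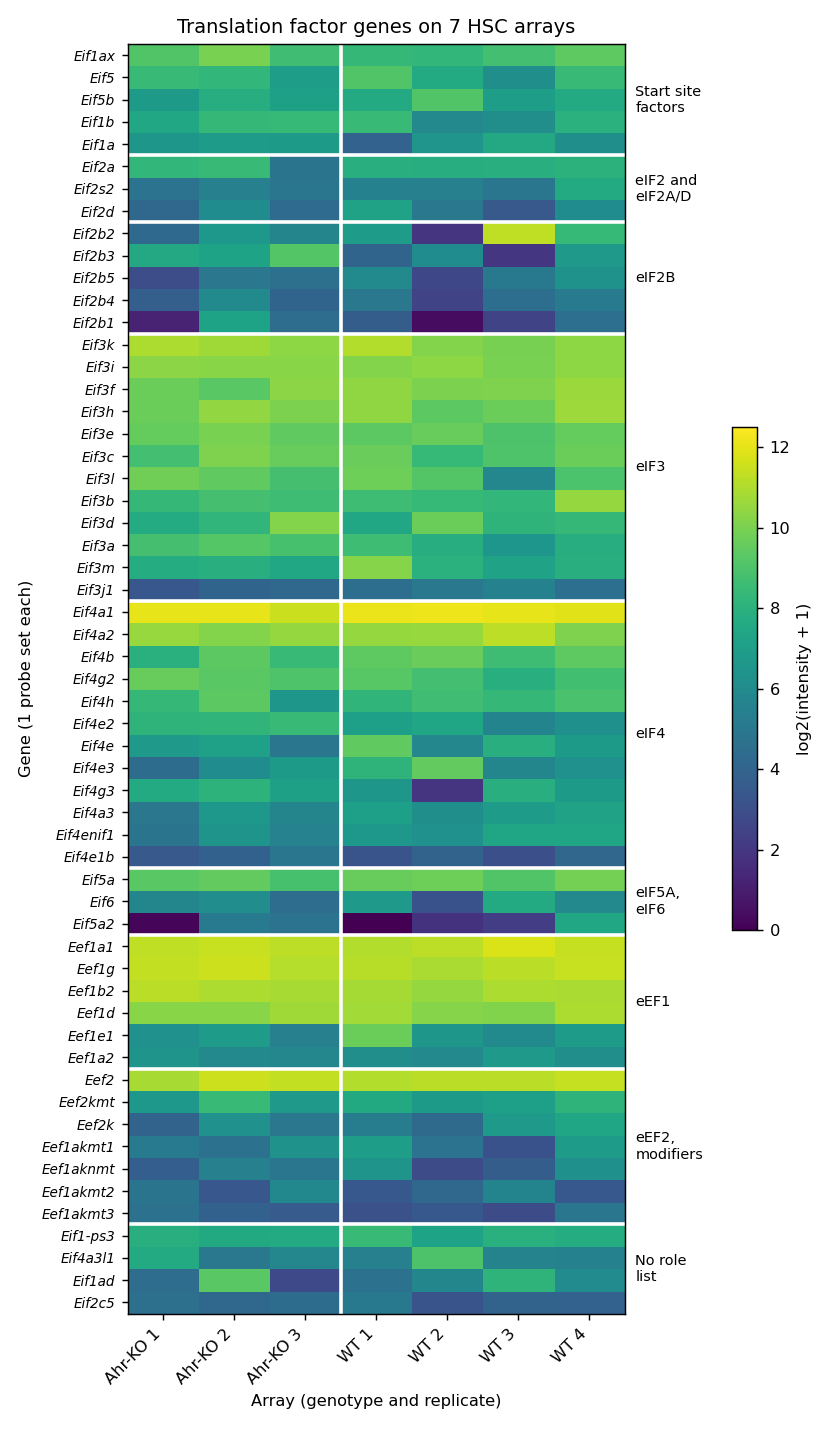
Log2(intensity + 1) of the 57 genes (rows, grouped by role, brightest first in each group) on the 7 arrays (columns). Colour compares arrays within a row and not genes with each other. The rows of Eif4a1, Eef1a1, Eef1g, Eef1b2 and Eef2 are nearly even across the arrays, while the eIF2B rows are patchy.

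The start site factors hold the scanning ribosome in an open or closed state and join the subunits. Eif1ax, an X-linked gene of eIF1A, which promotes scanning, stood at 558, 1006 and 406 on the Ahr-KO arrays against 323, 306, 434 and 665 on the WT arrays. The groups overlapped, and the difference was 0.57 ± 0.53 (SE; limma adjusted p = 0.963). Leaving out Ahr-KO replicate 2 gave 0.21. Its paralog Eif1a was listed at 14.2 on WT replicate 1, with a difference of 0.73 ± 0.82 (SE) that shrank to 0.02 once that array was left out. Eif1b, a close relative of the start codon selection factor gene Eif1, stood at 171, 321 and 335 against 340, 58.0, 71.0 and 251, a difference of 0.94 ± 0.74 (SE), and 0.53 without WT replicate 2. WT replicates 2 and 3 were low and the other WT arrays lay within or just above the Ahr-KO range. Eif5, whose product triggers GTP hydrolysis on eIF2, stood at 338, 307 and 128 against 542, 202, 74.0 and 338, and its difference of 0.05 ± 0.76 (SE) turned negative when any 1 of 4 arrays was left out. Eif5b, the gene of the subunit joining GTPase, differed by -0.61 ± 0.60 (SE), with 110, 217 and 139 against 198, 542, 128 and 201, and by -0.20 without WT replicate 2. Over the 5 genes the median difference was 0.57 (0.21 without Ahr-KO replicate 2), and 4 were above 0.

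The genes around eIF2, the GTPase that carries the initiator tRNA, were above background on all arrays in 0 of 3 cases. Eif2s2, of the beta subunit, stood at 26.0, 42.2 and 29.3 on the Ahr-KO arrays against 44.7, 41.9, 29.4 and 198 on the WT arrays. WT replicate 4 alone stood apart: the difference was -0.84 ± 0.70 (SE) with it and -0.25 without it. Eif2a, of a factor that can bring the initiator tRNA without eIF2, was even in WT at 228, 222, 230 and 258. In Ahr-KO it stood at 304, 340 and 26.8, so that its difference of -0.72 ± 0.88 (SE) was 0.46 without Ahr-KO replicate 3. Eif2d, another non-canonical initiation factor gene, stood at 17.7, 67.7 and 19.4 against 144, 30.6, 10.3 and 66.1. Its difference of -0.54 ± 0.93 (SE) was 0.04 without WT replicate 1. The 3 differences were below 0, and none had an unadjusted p under 0.05.

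eIF2B recharges eIF2 with GTP and is the point at which stress kinases slow initiation. Eif2b3, of the gamma subunit, stood at 184, 152 and 571 on the Ahr-KO arrays against 15.6, 66.4, 2.91 and 105 on the WT arrays. Each Ahr-KO value lay above each WT value, and the WT values ran from far below background to above it. The difference was 3.28 ± 1.16 (SE; 95% interval 0.60 to 5.95; unadjusted p = 0.0225, limma adjusted p = 0.963). With a pseudocount of 16 it was 2.45, and leaving out single arrays gave 2.36 to 3.95. The unadjusted limma p was 0.083 without Ahr-KO replicate 3 and 0.053 without WT replicate 1. The other 4 subunit genes had smaller differences in both directions. Eif2b2, of the beta subunit, stood at 18.6, 99 and 50.2 against 115, 2.71, 2561 and 332. Its WT values were scattered from far below background to far above it, and the difference was -1.58 ± 1.95 (SE), but -0.17 without WT replicate 3. Eif2b5, of the catalytic epsilon subunit, differed by -0.86 ± 0.96 (SE), at 6.80, 30.0 and 23.4 against 62.9, 5.61, 32.1 and 80.8, and by -0.25 without Ahr-KO replicate 1 or -1.63 without WT replicate 2. Eif2b1, of the alpha subunit, differed by 1.52 ± 1.48 (SE), with 150 on Ahr-KO replicate 2 and values below background on the other 6 arrays. Leaving out Ahr-KO replicate 2 gave 0.07 and leaving out Ahr-KO replicate 1 gave 3.05. Of the 5 genes, 4 had their lowest value on WT replicate 2, the array with the smallest share of probe sets above background (30.7%). Without that replicate Eif2b3 differed by 3.73.

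eIF3 is the large scaffold that binds the small subunit and keeps it ready for mRNA. Of its genes 12 were measured. Eif3a, of the largest subunit, stood at 442, 582 and 462 on the Ahr-KO arrays against 387, 224, 94.6 and 223 on the WT arrays. Each Ahr-KO array exceeded each WT array, although WT replicate 1 came within reach of the lowest Ahr-KO array. The difference was 1.25 ± 0.56 (SE; 95% interval -0.05 to 2.54; unadjusted p = 0.0574, limma adjusted p = 0.963), and 0.87 without WT replicate 3. Eif3j1, of a loosely bound subunit, had lower values in Ahr-KO, at 9.59, 15.5 and 17.3 against 22.2, 31.2, 44.1 and 22.4. Only the value on WT replicate 3 exceeded the background mark. Its difference of -1.01 ± 0.47 (SE; unadjusted p = 0.0654, limma adjusted p = 0.963) was -0.59 with a pseudocount of 16.

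The remaining eIF3 genes overlapped between genotypes. Eif3i, of a WD repeat subunit, was the steadiest, at 1283, 1227 and 1229 on the Ahr-KO arrays against 1173, 1313, 998 and 1307 on the WT arrays. Its residual SD within genotype was 0.15 log2 units, the smallest of the 57 genes, and its difference was 0.07 ± 0.40 (SE; 95% interval -0.86 to 0.99). The limma interval is wider than the own spread of so steady a gene, because limma moderates each variance with the spread of all probe sets. Eif3k stood at 1972, 1695 and 1339 against 2159, 1145, 984 and 1326, a difference of 0.30 ± 0.47 (SE) that was 0.15 without WT replicate 3. Eif3f, which also has deubiquitinase activity, stood at 832, 623 and 1301 against 1373, 1045, 1090 and 1598, with Ahr-KO replicates 1 and 2 below all WT arrays and a difference of -0.52 ± 0.46 (SE), or -0.27 on leaving out Ahr-KO replicate 2. Eif3e and Eif3c each differed by 0.29, and Eif3h by 0.03. The other 4 had 1 or 2 arrays far from the rest. Eif3l was 53.3 on WT replicate 3 and 454 to 874 elsewhere, and its difference of 0.95 was 0.08 without that array. Eif3b was 1463 on WT replicate 4 and 314 to 447 elsewhere, and Eif3m was 1217 on WT replicate 1 and 145 to 253 elsewhere. Eif3d was 1147 on Ahr-KO replicate 3 and 823 on WT replicate 2, against 181 to 319 on the rest.

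Of the 12 eIF3 genes, 7 had their lowest value on WT replicate 3. That array was lowest for 16 of the 57 genes (28.1%), against 14.4% of all probe sets and 18.9% of the 3643 probe sets above background on all arrays. Mean log2 level of the eIF3 genes was 8.27 there and 8.73 to 9.20 on the other 6 arrays. The median eIF3 difference was 0.18 with all arrays and 0.03 without WT replicate 3 or without Ahr-KO replicate 2, with 8 of 12 genes above 0.

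The eIF4 factors bind the cap, unwind the leader and bridge to the ribosome. Of the cap binders, Eif4e2, whose product (4EHP) binds the cap but not eIF4G and is known to repress translation, stood at 278, 290 and 341 in Ahr-KO. In WT it stood at 130, 168, 48.4 and 76.2. The groups were apart, with the highest WT array well under the lowest Ahr-KO array, and every array lay above background. The difference was 1.66 ± 0.54 (SE; 95% interval 0.40 to 2.92; unadjusted p = 0.0161, limma adjusted p = 0.963). It ran from 1.34 to 1.93 when single arrays were left out, and its unadjusted limma p from 0.0087 to 0.0476. With the replicate block the difference was 1.55 and the unadjusted limma p 0.0735. Eif4e, the gene of the main cap-binding protein, stood at 106, 140 and 28.6 against 709, 54.9, 238 and 112, a difference of -1.24 ± 0.96 (SE), or -0.56 without Ahr-KO replicate 3. Eif4e3, a further cap binder, stood at 20.1, 67.6 and 110 against 276, 724, 52.5 and 79.0, a difference of -1.65 ± 1.02 (SE), or -0.96 without WT replicate 2. Both overlapped between genotypes, and whether they differ from Eif4e2 in response was not tested. Eif4enif1, whose product 4E-T carries eIF4E into the nucleus and represses bound mRNAs, stood at 27.3, 86.3 and 45.7 against 102, 78.1, 167 and 164. Ahr-KO replicate 2 lay above WT replicate 2, so the groups overlapped. The difference was -1.33 ± 0.56 (SE; 95% interval -2.63 to -0.04; unadjusted p = 0.0454, limma adjusted p = 0.963), and the unadjusted limma p was under 0.05 without Ahr-KO replicate 2 or WT replicate 2 and not without any other single array.

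**Figure D3:**
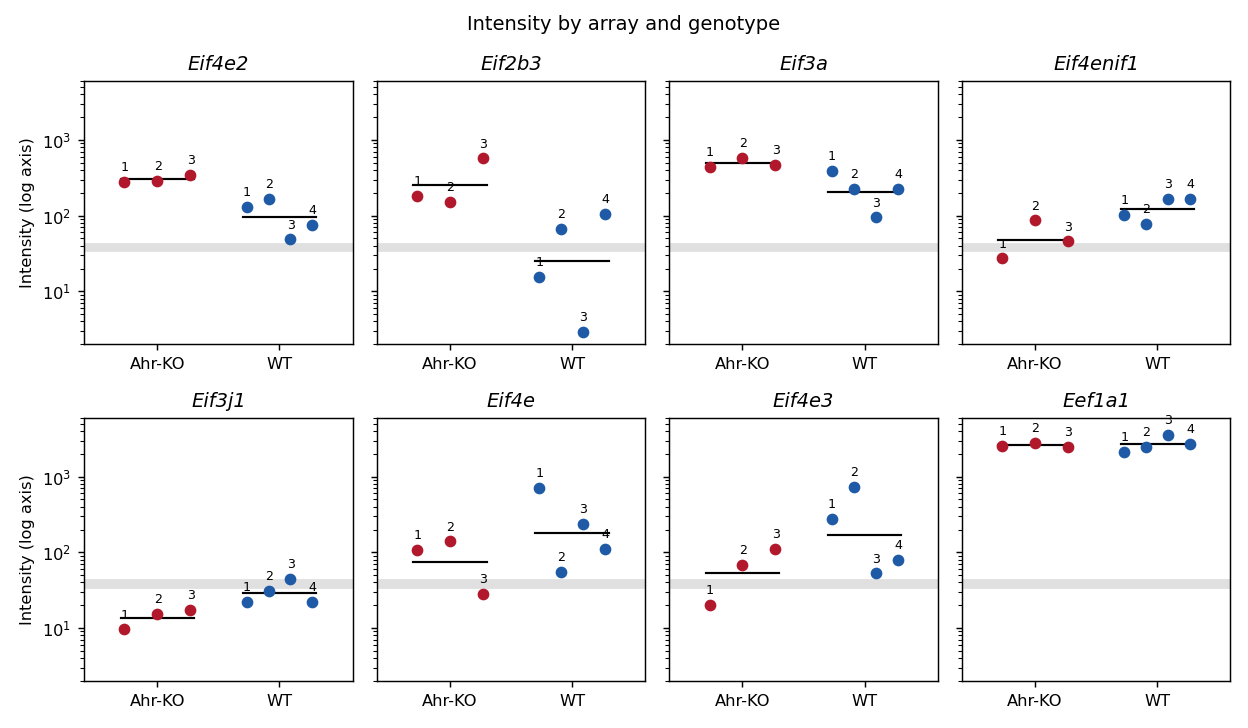
Intensity on a log axis for 8 translation factor genes by genotype, 1 point per array, numbered by replicate, with the genotype mean of log2(intensity + 1) as a black bar. The grey band is the range of the background mark over the arrays. Eif4e2, Eif2b3, Eif3a and Eif3j1 do not overlap between Ahr-KO and WT, while Eif4enif1, Eif4e, Eif4e3 and Eef1a1 do.

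Among the helicase and scaffold genes, Eif4a1, the helicase of the cap complex, stood at 4173, 4152 and 2894 on the Ahr-KO arrays against 4557, 4583, 4144 and 3979 on the WT arrays. Ahr-KO replicate 3 was the low array, and the difference was -0.22 ± 0.41 (SE; 95% interval -1.17 to 0.72), -0.05 without that array, with 0.32 ± 0.46 (SE) on its other probe set. Its paralog Eif4a2 stood at 1515, 1170 and 1455 against 1451, 1522, 2446 and 1072, a difference of -0.18 ± 0.46 (SE). The other 2 probe sets of Eif4a2 differed by 0.45 and -0.83, so direction varied with the probe set for both genes. Eif4b, which stimulates the helicase, stood at 243, 646 and 346 against 682, 786, 392 and 664, a difference of -0.69 ± 0.52 (SE) and, without Ahr-KO replicate 1, of -0.37. Eif4g2, of a scaffold that lacks the eIF4E site, had 780, 628 and 523 against 615, 441, 226 and 424, and differed by 0.66 ± 0.49 (SE), but by 0.39 without WT replicate 3. Eif4g3, a scaffold gene, was listed at 2.80 on WT replicate 2. Its difference was 1.83 ± 1.32 (SE) with that array and 0.54 without it. Eif4a3, the helicase of the exon junction complex, differed by -1.07 ± 0.55 (SE), but by -0.67 without Ahr-KO replicate 1. Over the 12 eIF4 genes the median difference was -0.33 (-0.68 without Ahr-KO replicate 2), with 8 below 0.

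eIF5A, the hypusine-carrying factor that helps ribosomes through difficult peptide bonds, is encoded by Eif5a, at 632, 726 and 464 on the Ahr-KO arrays against 778, 851, 551 and 949 on the WT arrays. Its difference was -0.36 ± 0.44 (SE; limma adjusted p = 0.964), and -0.18 without Ahr-KO replicate 3. Its paralog Eif5a2 was listed at 0.13, 35.6 and 26.5 against 0, 2.58, 3.86 and 174, near or below background on every array but WT replicate 4. Eif6, whose product keeps the large subunit from joining early, stood at 52.6, 69.6 and 21.3 against 109, 7.85, 197 and 58.7, a difference of -0.41 ± 1.05 (SE) that became 0.18 without WT replicate 3.

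The core elongation factor genes were above background and even across arrays. Eef1a1, which encodes the GTPase that delivers aminoacyl-tRNA, stood at 2558, 2823 and 2466 on the Ahr-KO arrays against 2101, 2442, 3570 and 2732 on the WT arrays. Its difference was -0.03 ± 0.42 (SE; 95% interval -1.0 to 0.95), and 0.05 on its other probe set. Eef1a1 has many processed copies in the genome, and probes shared with them were not checked. Of its nucleotide exchange partners, Eef1b2 stood at 2379, 2023 and 1852 against 1782, 1456, 1961 and 1949, and Eef1g at 2629, 2996 and 2198 against 2255, 1943, 2328 and 2755. They differed by 0.22 ± 0.41 and 0.17 ± 0.41 (SE), and Eef1d, the third, by -0.11 ± 0.45 (SE). Eef2, of the translocase, stood at 1842, 2972 and 2578 against 2103, 2372, 2360 and 2697, a difference of 0.03 ± 0.42 (SE; 95% interval -0.94 to 1.0). For these 5 genes the differences ran from -0.11 to 0.22, the median residual SD was 0.25 log2 units against 0.93 over all probe sets, and the limma intervals reach at most 1.17.

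**Figure D4:**
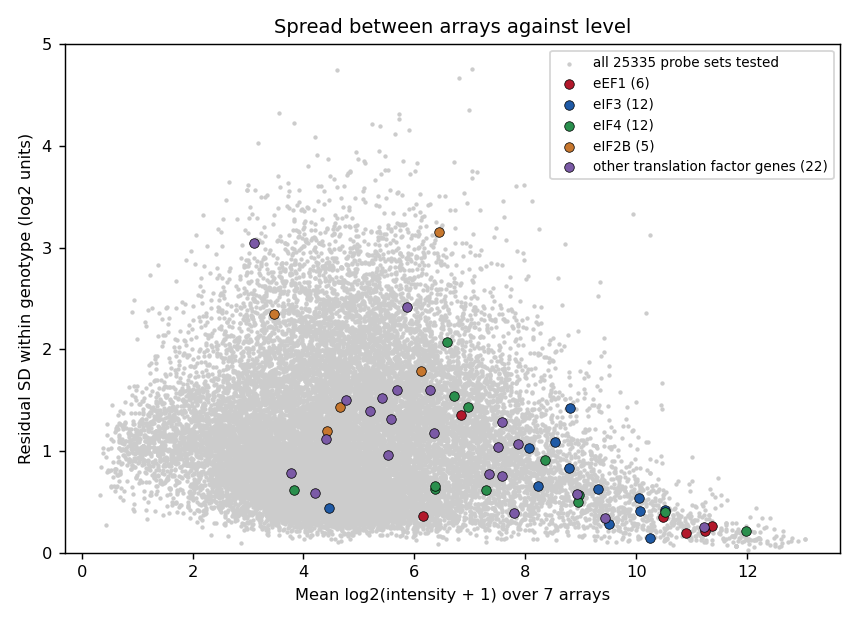
Residual SD within genotype against mean log2(intensity + 1) over the 7 arrays for all 25335 probe sets (grey) and the 57 translation factor genes (coloured by role). Spread falls with level, and 4 of the 6 eEF1 genes sit at the bright, even end, at residual SDs of 0.19 to 0.35, while the 5 eIF2B genes lie between 1.2 and 3.15.

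Other genes beside elongation were dim or uneven. Eef1e1, whose product belongs to the aminoacyl-tRNA synthetase complex, was 821 on WT replicate 1 and 43.2 to 119 on the other 6 arrays. Its difference of -1.05 ± 0.91 (SE) was -0.26 without that array. Eef1a2, the paralog known from muscle and neurons, differed by -0.20 ± 0.45 (SE), at 87.7, 58.6 and 53.6 against 72.6, 58.0, 104 and 72.4. Eef2k, the kinase that inactivates eEF2, stood at 14.9, 80.1 and 30.4 against 37.0, 19.1, 105 and 164, a difference of -0.82 ± 0.89 (SE). It was -0.26 without Ahr-KO replicate 1 and -1.44 without Ahr-KO replicate 2. The methyltransferase genes Eef2kmt, Eef1akmt1, Eef1akmt2, Eef1akmt3 and Eef1aknmt, which modify the elongation factors, differed by -0.12 to 0.51. Eef2kmt stood at 99.5, 342 and 107 against 191, 111, 132 and 276, and Eef1akmt3 at 24.3, 13.5 and 11.2 against 7.48, 9.72, 6.4 and 28.7, below background on all arrays. The 4 genes outside the role groups differed by -0.63 to 0.38, and Eif1ad rested on Ahr-KO replicate 2 at 629, against 21.4 and 5.67 on the other Ahr-KO arrays.

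Genes that regulate or complete translation, listed with earlier results of these data known, also gave no call at an adjusted p of 0.05 by limma. Of all probe sets, 0% were called and 4.21% had an unadjusted limma p under 0.05. The counts below come from short lists made with those results known, and are no result about these groups. Of 14 cap and mTOR regulators, 1 (7.14%) had an unadjusted p under 0.05: Mtor, the growth kinase that frees eIF4E from its inhibitors. Mtor stood at 126, 94.5 and 158 against 46.7, 34.1, 22.9 and 27.8, above background on 1 of 4 WT arrays. Its difference was 1.93 ± 0.46 (SE; limma adjusted p = 0.963), and 1.54 with a pseudocount of 16. Paip1, which couples the poly(A)-binding protein to initiation, differed by 2.11 ± 1.0 (SE), but by 1.38 without Ahr-KO replicate 1. Rps6 and Pabpc1, a ribosomal protein gene and that of the poly(A)-binding protein, differed by 0.06 and 0.07. Of 12 eIF2 regulators, 1 (8.33%) had an unadjusted p under 0.05. This was Eif2ak4, the amino acid sensing kinase GCN2, at 29.7, 201 and 232 against 5.81, 0.85, 7.94 and 27.9, all WT values below background. Its difference was 3.90 ± 1.07 (SE) and, at a pseudocount of 16, 2.44. Eif2ak1, the heme-regulated kinase, differed by -2.75 ± 1.5 (SE) and exceeded background on WT replicate 2 alone, and without that array it differed by -1.5. Atf4, the transcription factor translated when eIF2 is phosphorylated, differed by 0.10 ± 0.43 (SE).

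Of 12 genes of termination, ribosome rescue and factor modification, 1 (8.33%) had an unadjusted p under 0.05, against 4.21% of all probe sets. This was Pelo, of the ribosome rescue factor pelota, at 631, 662 and 377 on the Ahr-KO arrays against 122, 45.9, 559 and 127 on the WT arrays, with WT replicate 3 within the Ahr-KO range. It differed by 1.92 ± 0.82 (SE), but by -0.67 when its probe sets were averaged. Dph7, of the diphthamide pathway that modifies eEF2, differed by -1.47 ± 0.79 (SE), but by -0.73 without Ahr-KO replicate 2. Of 9 mitochondrial factor genes, 2 (22.2%) had an unadjusted p under 0.05, against the same 4.21%. Gfm2, of mitochondrial ribosome recycling, stood at 22, 231 and 111 against 9.0, 0.07, 3.69 and 6.89. It exceeded background on 2 of 3 Ahr-KO arrays and 0 of 4 WT arrays. A pseudocount of 16 reduced its difference of 4.24 ± 1.02 (SE) to 2.36. Mrrf, of the same step, differed the other way, by -1.99 ± 0.73 (SE), at 17.3, 9.91 and 18.1 against 76.3, 17.2, 140 and 73.5. For each of these genes the limma adjusted p was 0.963 or above.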

How the data were processed

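Intensities per probe set were taken as the authors deposited them, on a linear scale and never negative. The submitters' processing notes name Affymetrix Expression Console. The sources used here do not give the algorithm, background correction, normalization or genome build. Biotin-labelled cDNA of sorted HSCs was hybridised on 7 single-channel arrays. The platform annotation listed 25335 of 41155 rows, 23521 with 1 symbol.

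Values were transformed as log2(intensity + 1), and Ahr-KO was compared with WT in limma 3.58.1 (lmFit, eBayes, R 4.3.3) with genotype as the only term, two-sided, adjusted by Benjamini-Hochberg over the listed rows, with 95% intervals. The fit was tested on simulated data with changes placed in bright rows and larger than that of any gene named here. How well it finds smaller changes, or those of dim genes, was not tested. Intensities for each array were printed for the 3 brightest genes and the 2 of smallest unadjusted p in each role group, and for every gene past an unadjusted p of 0.05 or without overlap. From lists of related genes the 2 of smallest unadjusted p were named. Other named genes are examples chosen after their values were seen. Members, lists, the background mark and the promoter core were chosen with earlier results of these data known. Alternatives were quantile normalization, median centring, a pseudocount of 16, a filter on dim probe sets, all rows, a replicate block, averaged probe sets, a trended and robust prior, and leaving out each array. Depth has no meaning for arrays: their number limits precision. Promoter windows came from RefSeq (GRCm38.p6); genes without an entry, Eif2b3 among them, are only named.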

Additional observations from a re-analysis of the deposited data

Results flagged for a closer look

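In the WT group of 4 arrays, the gap of 1 array from the others, divided by the range of log2 values, exceeded Dixon's 95% critical value for 2 of 65 genes examined; about 1 in 20 groups does so by chance. Eif3b stood apart on WT replicate 4, at 1463 against 387, 328 and 314 (ratio 0.864). Eif4a3l1 stood apart on WT replicate 2, at 516 against 42.5, 46.9 and 43.8 (ratio 0.961). The Ahr-KO group of 3 arrays was too small for this rule.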

How the results depend on the processing

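Across the alternatives 0 of 57 translation factor genes passed an adjusted p of 0.05 by limma, and the lowest adjusted p over the 65 genes followed was 0.663. The 3 genes at an unadjusted p under 0.05 became 1, Eif2b3, with the replicate block (4.42% of all probe sets). That gene was higher in Ahr-KO, and 0 were lower. The trended and robust prior gave 0 lower (3.94% of all probe sets in either direction). Same-numbered arrays did not deviate together, at correlations of 0.0227, -0.0646 and 0.0101, so the numbers were not taken as pairs. Genes without overlap numbered 7 after quantile normalization, 4 of them lower (5.21% of all probe sets), and lower genes numbered 2 after median centring and 0 with the filter, which kept 49 of the 57 (5.45% and 6.12% of all probe sets without overlap in either direction). Overlap has no counterpart under the block. Leaving out single arrays gave 1 to 5 genes at an unadjusted p under 0.05 (1 to 2 higher, 0 to 3 lower; 3.77 to 5.29% of all probe sets) and 4 to 10 without overlap (3 to 6 higher, 1 to 7 lower; 9.27 to 14.5% of all probe sets). The median difference ran from -0.68 to -0.13 for eIF4 genes and from 0.21 to 0.79 for start site genes, and it changed sign for some other groups. The eIF2B median of 0.29 was -0.86 with the filter and -0.41 without Ahr-KO replicate 2, the eIF5A and eIF6 median of -0.36 was 0.18 without WT replicate 3, and the median over the 57 genes was 0.11 with the replicate block and without WT replicate 4. Leaving out single arrays, the eEF1 and eEF2 medians ran from -0.14 to 0.03 and from -0.25 to 0.25. With the background mark at the 99th percentile, an alternative chosen after seeing the data, 24 genes exceeded it on all arrays in place of 31.

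Of the 65 genes, 39 kept their sign throughout. Signs turned with quantile normalization for Eef1akmt1 (0.09), Eef2 (-0.05), Eif3h (-0.09), Eif3i (-0.02) and Eif5 (-0.06). Median centring turned Eef1a1 (0.03) and Eef1akmt1 (0.04), and averaging probe sets turned Eef1a1 (0.01), Eif4a1 (0.05) and Pelo (-0.67). With the replicate block Eef1akmt1 (0.47), Eef1aknmt (0.36), Eef1d (0.04), Eef2kmt (0.13) and Eif3b (0.17) turned. The cause was not tested. Leaving out single arrays turned the sign of 24 genes. Their ranges were Eef1a1 (-0.14 to 0.12), Eef1akmt1 (-0.77 to 0.49), Eef1akmt2 (-0.07 to 1.15), Eef1aknmt (-0.76 to 0.42), Eef1d (-0.26 to 0.04), Eef2 (-0.12 to 0.22), Eef2kmt (-0.69 to 0.20), Eif1-ps3 (-0.34 to 0.05), Eif1ad (-2.52 to 0.76), Eif2a (-1.35 to 0.46), Eif2b4 (-0.41 to 0.70) and Eif2d (-1.18 to 0.04). For the rest they were Eif3b (-0.57 to 0.17), Eif3c (-0.02 to 0.65), Eif3d (-0.45 to 0.78), Eif3h (-0.20 to 0.24), Eif3i (-0.02 to 0.11), Eif3m (-1.01 to 0.01), Eif4a2 (-0.36 to 0.04), Eif4a3l1 (-0.97 to 0.65), Eif4h (-1.06 to 0.31), Eif5 (-0.49 to 0.49), Eif5a2 (-0.47 to 2.09) and Eif6 (-1.32 to 0.18).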
